A study of Mus musculus and Homo sapiens with 18 samples.

Results

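In all, 10 genes in which inherited variants cause cataract, other than the crystallins and the structural proteins of the lens fibre, were followed across 3 RNA-seq experiments on loss of Qki, an RNA-binding protein encoded by Qk in the mouse and QKI in human. The genes were Epha2, Fyco1, Gcnt2, Agk, Slc16a12, Chmp4b, Wfs1, Nhs, Tdrd7 and Eya1, chosen by name from the human genetics of cataract. All 10 were listed in each count table, out of 46882 genes for the mouse lens, 54838 for NLPCs and 60880 for HLE-B3 cells. The study asked which transcripts change in lens cells when Qki is lost.

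Each experiment had 3 control and 3 deletion libraries, 18 in all. The lens libraries came from whole lenses of mice at postnatal day 17 to 19. Ctrl lenses were Nestin-CreERT2; QkL/+, with 1 floxed Qk allele, and Qk-iCKO lenses were Nestin-CreERT2; QkL/L, with both. Per the study's methods, Ctrl and Qk-iCKO littermates alike received tamoxifen at postnatal days 7 and 8. The loxP sites flank exon 2 of Qk, and Cre was driven by the Nestin promoter. Where Cre acted, Ctrl lenses could thus lose their 1 floxed allele, so they are not lenses without any deletion. NLPCs, progenitor-like cells of the lens lineage, were differentiated from neural stem cells that came from whole Nestin-CreERT2; QkL/L brains at postnatal day 1. Deletion was induced in the stem cells with 100 nM 4-hydroxytamoxifen, given 2 times. Both the WT and the Qk-/- cultures then received Noggin (100 ng/ml) for 6 days, followed for 12 days by bFGF at 100 ng/ml together with BMP4 and BMP7, each at 20 ng/ml. HLE-B3 is an immortalized human lens epithelial cell line. Its QKI KO cells were made with lentiviral CRISPR/Cas9 and puromycin selection, and no selection of single clones is described. The study's methods give 3 mice for each lens genotype. The study's reporting summary gives at least 3 independent biological replicates for animal and cell line work. For the cultures the labels do not say how replicates were separated. There the p-values measure the spread between these libraries, and how independently the libraries were made is not described further.

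The libraries held 10319320 to 16425331 counts in the lens, 28154202 to 68243360 in NLPCs and 69190864 to 81384471 in HLE-B3. Values below are normalized CPM, the counts of a gene relative to its library's total, scaled between libraries with TMM factors, and fold changes are deletion against control from edgeR's quasi-likelihood test with Benjamini-Hochberg adjustment over all genes tested. Qk itself averaged 121 ± 5.67 CPM across Ctrl and 97.7 ± 9.74 across Qk-iCKO libraries (SD, n = 3 each; log2 fold change -0.31, adjusted p = 0.20). In NLPCs the Qk total was higher in the libraries labelled Qk-/- (log2 fold change 0.41, adjusted p = 0.027). A total over the gene is no direct check of a deletion of exon 2, so it cannot decide whether the label holds. At the protein level, the study reports that Qki was lost from the stem cells and NLPCs once deletion was induced. For marked lens cells it reports near-complete loss of a Qki isoform and a smaller decrease of another. The cause of the higher RNA total in NLPCs was not tested. In HLE-B3 QKI fell by 1.34 on the log2 scale (adjusted p = 1.85e-11). The lens fibre marker genes summed to 212283 to 225244 CPM in Ctrl and 113651 to 195771 in Qk-iCKO lenses, 0.810 to 4.75 in NLPCs and 3.52 to 8.07 in HLE-B3, so that fibre markers were near 0 in both cultures. A 12-gene macrophage and leukocyte list summed to 2.49 to 5.22 CPM in Ctrl and 123 to 162 in Qk-iCKO lenses. All 10 of its genes that were tested were higher in Qk-iCKO. At such Ctrl levels most of them passed the filter on low counts only through Qk-iCKO and had to be higher. That count is a description. Qk-iCKO 1 stood apart by its TMM factor and by the lowest fibre marker sum. Its pigmented ciliary body and iris markers summed to 146 CPM (22.7 to 37.6 in the other lens libraries). Its fibroblast and vessel markers summed to 120 CPM (21.96 to 92.2 in the others). Of 4 ciliary body and iris genes tested, 0 were called higher in Qk-iCKO and 1 lower by edgeR, while 3 had a log2 fold change above 0. The median of the 4 was 3.05. All 4 had an unadjusted p under 0.05 in edgeR, and DESeq2 called 3. These counts are descriptions. The lower gene was Mitf, from a mean of 25.97 to 13.67 CPM (log2 fold change -0.93, adjusted p = 0.049). Mitf thus made up most of the Ctrl sums of that list, which were 27.5 to 34.8 CPM. Ctrl 2 stood apart by its retinal marker genes, which summed to 494 CPM there and to 1.99 to 75.8 CPM in the other lens libraries. Y-linked counts were high in Qk-iCKO 2 and 3 alone, so sex was partly confounded with genotype in every lens comparison. In such bulk tissue, a change in the make-up of the cells and a change in RNA per cell cannot be told apart.

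The 10 genes serve separate tasks that a clear lens depends on. Epha2 is a receptor tyrosine kinase for ephrin-A ligands that helps to pack fibre cells in hexagonal rows. Fyco1 links autophagosomes to kinesin, and Chmp4b is a subunit of ESCRT-III, the complex that cuts membrane necks. Both pathways bear on the clearing of organelles and membrane proteins from fibre cells. Gcnt2 makes the branch of the I blood group antigen, Agk is a lipid kinase of mitochondria, Slc16a12 carries creatine, Wfs1 is a membrane protein of the endoplasmic reticulum, Nhs regulates actin, Tdrd7 belongs to RNA granules, and Eya1 is a transcriptional co-activator and phosphatase of eye and ear development.

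Qki proteins bind RNA at a core of ACTAAC or ACTAAT (written as DNA), often with a second part, TAAC or TAAT, nearby. Searching the sense strand of 1 annotated 3′UTR per gene found the core in 5 of the 10 mouse genes and 6 of the 10 human genes. Across all genes the shares were 29.6% of 20677 mouse and 33.4% of 19286 human 3′UTRs. A core followed within 1 to 20 bases by the second part was present in 1 mouse gene, Eya1, and in 3 human genes, NHS, TDRD7 and EYA1, against 7.56% of mouse and 10.2% of human 3′UTRs. The human NHS 3′UTR held 5 cores in 3530 bases, or 1.42 per kb, against 0.352 per kb over all human 3′UTRs. Windows of 30 bases are shown for the two-part matches of NHS, TDRD7 and mouse Eya1, and, to set beside them, for the single cores of mouse Nhs and of Gcnt2 in both species, with core and second part in capitals. They come from human GRCh37 and mouse GRCm38 and are printed 5′ to 3′ on the strand of the gene.
NHS, first (chrX:17751598-17751627, plus strand): ggtcataACTAATgactgTAATcattaaac
NHS, second (chrX:17753191-17753220, plus strand): tcacagaACTAACccttaTAATatagtttt
Nhs (chrX:161835728-161835757, minus strand): ccaggttcataaACTAACagaaataaaagc
GCNT2 (chr6:10626999-10627028, plus strand): actgtgaaatacACTAACaggatggctggg
Gcnt2 (chr13:40960649-40960678, plus strand): gagcacctgaagACTAATgttttacactgg
TDRD7 (chr9:100258187-100258216, plus strand): caACTAATtcagattttttagcaaTAACaa
Eya1 (chr1:14169772-14169801, minus strand): tcaacACTAATgtattatatgTAACtactt

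Mouse Tdrd7 had no core in its 3′UTR of 245 bases, whereas the human 3′UTR of 242 bases held the 2 parts shown. Mouse Nhs had 1 core in 3519 bases and no second part near it. Gcnt2 had 1 core in each species, at different places. These matches are letters found in a window and were not measured as binding. Promoter windows from RefSeq (GRCm38, 250 bases before to 50 after the start) matched 9 of the 10 mouse genes with 14 windows. None of the 14 held the SREBP-type sequence TCACNCCAC on either strand, which 1.24% of 32851 windows held.

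In the control libraries, the members differed widely in level. Per length, as RPKM (CPM divided by the kilobases of merged exons), Tdrd7 led in Ctrl lenses at 621 ± 11.6 (SD, n = 3). Chmp4b followed at 37.9 ± 0.840 and Epha2 at 19.8 ± 2.47. Nhs (6.29 ± 0.819) and Slc16a12 (6.07 ± 0.594) overlapped each other, as did Wfs1 (1.82 ± 0.253) and Fyco1 (1.55 ± 0.222). Eya1, Agk and Gcnt2 closed the order at 0.934, 0.194 and 0.127 RPKM, and none of these 3 overlapped its neighbour.

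The cultures had another order. In WT NLPCs Chmp4b led with 73.4 ± 3.01 RPKM, and Fyco1 (11.7), Tdrd7 (7.87) and Eya1 (6.46) came next. Epha2, the third in the lens, was the ninth in NLPCs at 0.205 ± 0.0891 RPKM, and Slc16a12 was last at 0.0505. In HLE-B3 WT cells CHMP4B (35.0 ± 2.90) and EPHA2 (16.0 ± 0.847) led. GCNT2, NHS, SLC16A12 and EYA1 lay between 0.00297 and 0.0747 RPKM, each overlapping its neighbour. The tables were normalized separately, so levels set across experiments are descriptions only.

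**Figure D1:**
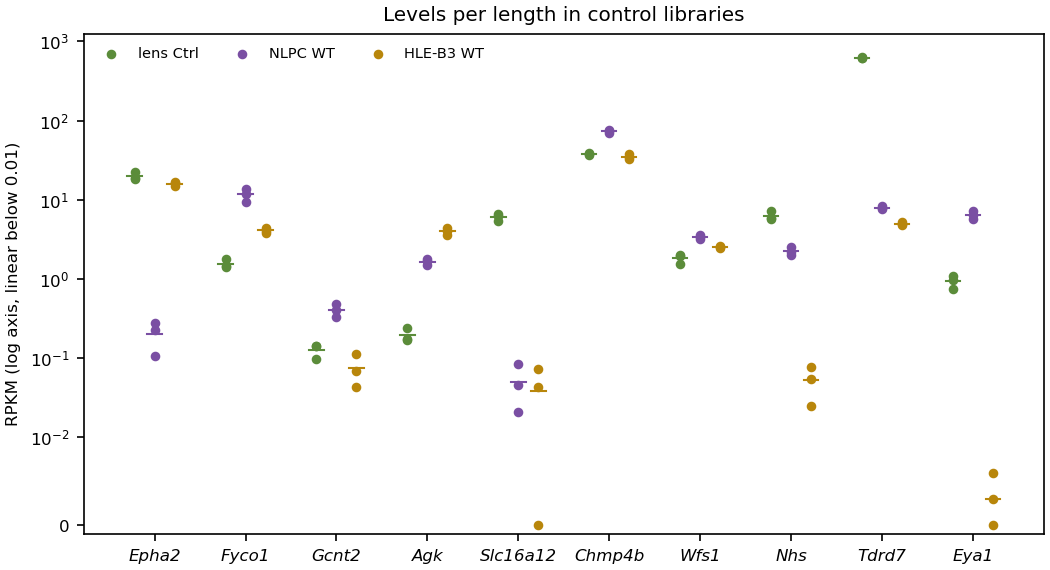
Levels per length of the 10 genes in control libraries, as RPKM on a log axis that is linear below 0.01. Each point is a library and each short line a mean of 3; Tdrd7 in the lens stands at 621 RPKM, above every other value plotted.

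In the lens, 2 of the 10 members were higher in Qk-iCKO than in Ctrl, Gcnt2 and Wfs1, and 0 were lower. Of 12201 genes tested, 8.38% were higher and 3.88% lower. Gcnt2 met the filter on low counts only with Qk-iCKO libraries included. With at least 10 counts required in every library, the same 2 members were called. DESeq2 called 3 members, Nhs being the one added and lower, and the same 3 had an unadjusted p under 0.05 in edgeR. The Ctrl and Qk-iCKO values of 6 members did not overlap, against 35.3% of all genes tested. The median log2 fold change of the members was 0.17, beside 0.0064 over all genes tested.

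In NLPCs 1 member of 10 was higher in the libraries labelled Qk-/-, Eya1, and 1 was lower, Tdrd7. The shares over 20371 genes were 4.74% higher and 5.96% lower. DESeq2 called 3 members, Chmp4b being the one added and lower, and 6 had an unadjusted p under 0.05 in edgeR. The values of 6 members did not overlap, against 35.2% of all genes, and the median was 0.26 beside 0.040.

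In HLE-B3 9 members were tested. EPHA2 and GCNT2 were higher in QKI KO cells, and FYCO1, AGK and NHS were lower, that is 2 and 3 of 9, where 17.0% of 19049 genes were higher and 16.3% lower. DESeq2 called 4 members, AGK being the one left out, and 6 had an unadjusted p under 0.05 in edgeR. The groups of 5 members did not overlap, against 44.6% of all genes. NHS passed the filter on low counts only through its WT libraries and so had to differ. Without it, 2 of 8 were higher, 2 were lower and 4 did not overlap, with a median of -0.18 beside -0.020. EYA1 was not tested because its libraries held 0 to 0.0557 CPM. The shares over all genes of each system are also those to set beside the lists of related genes counted below.

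**Figure D2:**
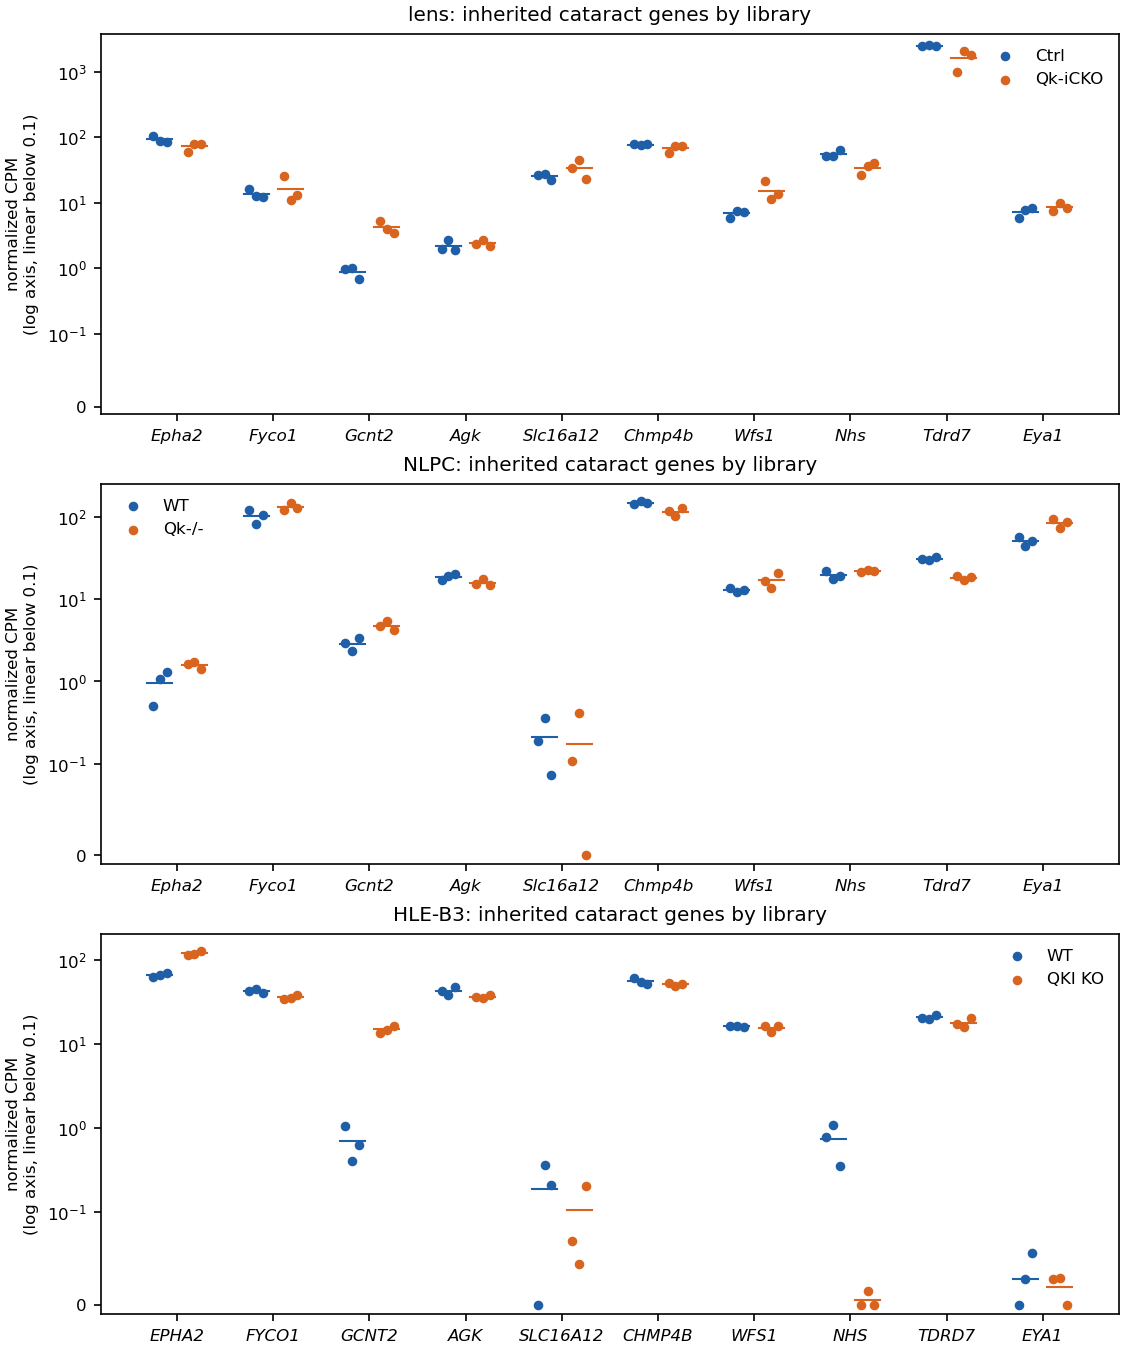
Normalized CPM of the 10 genes in each library, on a log axis that is linear below 0.1, with the lens, NLPCs and HLE-B3 in separate panels. Blue points are control and orange points deletion libraries, 3 each, with the mean as a line; GCNT2 rises from at most 1.04 to at least 13.5 CPM in HLE-B3, and NHS is at or near 0 in the QKI KO libraries.

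Gcnt2, the I-branching enzyme, had the largest increase among the members in the lens and in HLE-B3. The mouse gene lies at chr13:40859754-40960892 (GRCm38, plus strand) and the human gene at chr6:10492456-10629601 (GRCh37, plus strand). In the lens it was 0.994, 0.998 and 0.686 CPM in Ctrl and 5.34, 3.97 and 3.43 CPM in Qk-iCKO libraries. Every Qk-iCKO value was above every Ctrl value. The log2 fold change was 2.25 (SE 0.31, adjusted p = 0.0050), and with any 1 library left out it was 2.04 to 2.38 with adjusted p of at most 0.030. The Ctrl counts were 12, 14 and 10. The main filter scales its minimum with library size, and the Ctrl libraries alone did not meet it. With at least 10 counts required in every library, Gcnt2 was kept and called by edgeR (2.28, adjusted p = 0.0042). In HLE-B3 GCNT2 was 1.04, 0.398 and 0.627 CPM in WT and 13.5, 14.8 and 16.3 CPM in QKI KO cells. It rose by 4.41 on the log2 scale (SE 0.23, adjusted p = 4.73e-10). The 50 tested genes nearest to GCNT2 on chromosome 6 had a median log2 fold change of 0.23. In NLPCs the WT values were 2.90, 2.36 and 3.38 CPM and those of the libraries labelled Qk-/- were 4.66, 5.47 and 4.20 CPM. These groups did not overlap either, but the log2 fold change of 0.73 (SE 0.24) did not pass the test (adjusted p = 0.099).

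The gene has alternative first exons, and counts per gene do not separate them. Antisense genes overlap it in both species, and whether the counting used strand is not given in the sources used here. The part of the macrophage genes in the lens values was not tested. In HLE-B3 the same macrophage list summed to 3.92 to 5.55 CPM in WT and 2.50 to 2.81 CPM in QKI KO cells. These sums describe a cell line and do not bear on the lens tissue. Of 7 related glycosyltransferases, 3 were tested in the lens and 2 were higher, B4galt1 (log2 fold change 1.57, adjusted p = 0.014) and Gcnt1 (2.18, adjusted p = 0.024). Gcnt1, at 0.443 ± 0.207 CPM in Ctrl and 2.01 ± 0.708 in Qk-iCKO, passed the filter on low counts only through Qk-iCKO. It had to be higher, so its call is a description. In NLPCs 1 of 3 was higher and 0 were lower. In HLE-B3 2 of 5 were higher, the same 2 genes, B4GALT1 at 0.23 (adjusted p = 0.0097) and GCNT1 at 0.24 (adjusted p = 0.041), and 1 was lower.

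Wfs1, whose human counterpart is mutated in Wolfram syndrome, was 5.80, 7.56 and 7.34 CPM in Ctrl and 21.3, 11.2 and 13.5 CPM in Qk-iCKO lenses. All Qk-iCKO values exceeded the Ctrl values, and Qk-iCKO 1 was the highest. That library also had the highest ciliary body, iris and fibroblast marker sums, whose part was not tested, and without it the log2 fold change was 0.84 (adjusted p = 0.031). With all libraries it was 1.16 (SE 0.26, adjusted p = 0.028). The call was lost without Ctrl 1 (adjusted p = 0.11), Ctrl 2 (0.083) or Ctrl 3 (0.091), and with total counts alone (0.075). In NLPCs Wfs1 was 12.1 to 13.6 CPM in WT and 13.7 to 20.6 CPM in the libraries labelled Qk-/- (log2 fold change 0.40, adjusted p = 0.16). In HLE-B3 it was 15.7 to 16.5 CPM in WT and 14.0 to 16.4 CPM in QKI KO cells (-0.054, 95% interval -0.24 to 0.14), with overlapping groups.

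Of 6 genes for calcium handling in the endoplasmic reticulum, Itpr3, an inositol trisphosphate receptor, was the 1 gene higher in the lens, from 5.93 ± 0.949 to 20.7 ± 8.83 CPM (log2 fold change 1.81, adjusted p = 0.010). Itpr3 was also higher in NLPCs (1.53, adjusted p = 0.0029), and ITPR3 was lower in HLE-B3 (-0.47, adjusted p = 2.12e-05). Itpr2, a second receptor, was lower in NLPCs (-0.62, adjusted p = 0.029) and in HLE-B3 (-0.80, adjusted p = 5.79e-07). In all, 3 of 6 were higher and 1 lower in NLPCs, and 1 of 5 was higher and 2 lower in HLE-B3.

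**Figure D3:**
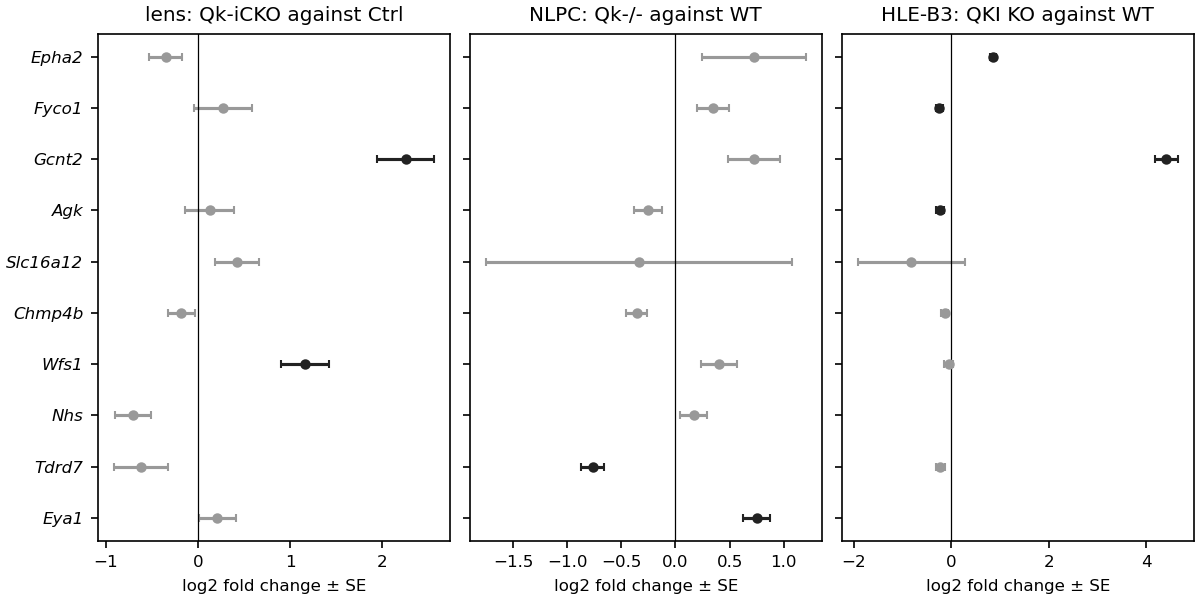
Log2 fold change of each gene, deletion against control, with its SE as a bar, in the lens, NLPCs and HLE-B3 (the axes differ between panels). Black marks an adjusted p under 0.05; EYA1 was not tested in HLE-B3, and NHS is left out there because its QKI KO libraries hold 1 count in all. Gcnt2 lies at 2.25 in the lens and 4.41 in HLE-B3.

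Nhs, the actin regulator of Nance-Horan syndrome, is X-linked. In the lens it was 51.6, 50.8 and 63.7 CPM in Ctrl and 26.1, 36.6 and 40.0 CPM in Qk-iCKO libraries. The Qk-iCKO values were all below the Ctrl values. The log2 fold change of -0.70 (SE 0.20) did not pass the test (adjusted p = 0.059), whereas it did with the replicate number as a block (-0.72, adjusted p = 0.024). The call was likewise made by DESeq2 (adjusted p = 0.016). The 4 Y-linked genes counted gave 0, 0 and 3 counts in Ctrl 1, 2 and 3 and 1, 1051 and 930 counts in Qk-iCKO 1, 2 and 3. The sexes were thus unevenly spread, with high counts in Qk-iCKO 2 and 3 alone, and sex was partly confounded with genotype. The part of sex in the Nhs values was not tested.

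In HLE-B3 the NHS counts were 63, 79 and 25 in WT and 0, 1 and 0 in QKI KO libraries. That is 167 against 1 count, a ratio of 159 after allowing for library size, with a 95% counting interval of 28.2 to 6319. Since the filter was passed through the WT libraries alone, these counts are a description. The WT level was 0.0527 ± 0.0265 RPKM. The 50 tested genes nearest to it on chromosome X had a median log2 fold change of -0.0021. The gene lies at chrX:17393323-17754114 (GRCh37, plus strand) and overlaps lncRNA genes on both strands. In NLPCs Nhs was 17.6 to 22.1 CPM in WT and 21.3 to 22.8 CPM in the libraries labelled Qk-/- (log2 fold change 0.17, adjusted p = 0.42), with overlapping groups.

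The remaining NHS family genes and the WAVE complex, which drives branched actin, counted 0 higher and 1 lower of 9 tested in the lens, 0 and 2 of 11 in NLPCs and 2 and 3 of 10 in HLE-B3. Cyfip1, a WAVE subunit, was lower in NLPCs, from 196 ± 4.37 to 112 ± 14.3 CPM (log2 fold change -0.81, adjusted p = 0.0031), and in HLE-B3 (-0.50, adjusted p = 7.58e-06).

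Tdrd7, the RNA granule protein, was the member with the highest level in the lens. It was 2410, 2501 and 2465 CPM in Ctrl and 971, 2071 and 1776 CPM in Qk-iCKO libraries. Qk-iCKO 1 stood far below the other two, and the groups did not overlap. The log2 fold change of -0.61 (SE 0.29) did not pass the test (adjusted p = 0.22), and it was -0.35 without Qk-iCKO 1 (adjusted p = 0.093). That library also had the largest TMM factor, 1.48, against 0.888 to 0.962 in the other lens libraries. In NLPCs Tdrd7 was 30.8, 30.1 and 32.6 CPM in WT and 19.1, 17.4 and 18.7 CPM in the libraries labelled Qk-/-. Here it fell by 0.76 on the log2 scale (SE 0.11, adjusted p = 0.0041), and leaving out any library gave adjusted p of at most 0.041. In HLE-B3 TDRD7 was 19.9 to 22.1 CPM in WT and 16.1 to 20.2 CPM in QKI KO cells (-0.22, SE 0.098, adjusted p = 0.10), and it was called with total counts alone (-0.28, adjusted p = 0.036). The fibre marker sum was likewise lowest in Qk-iCKO 1. All 7 fibre markers tested in the lens had a log2 fold change below 0, 5 did not overlap between groups, and 1 passed the test. Over all lens genes tested, 35.3% did not overlap and 3.88% were lower. Mip, the main membrane protein of fibre cells, went from 10898 ± 1045 to 3370 ± 1536 CPM (-1.69, adjusted p = 0.026). The part of the fibre markers in the Tdrd7 values was not tested.

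Among other Tudor and RNA granule genes, 0 were higher and 1 lower of 7 in the lens, 0 of 9 passed in NLPCs by edgeR (2 at an unadjusted p under 0.05, 0 by DESeq2), and 3 were higher and 1 lower of 8 in HLE-B3. The helicase gene DDX6 rose there (0.36, adjusted p = 3.61e-05) and TDRD3 fell (-0.46, adjusted p = 0.00030).

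**Figure D4:**
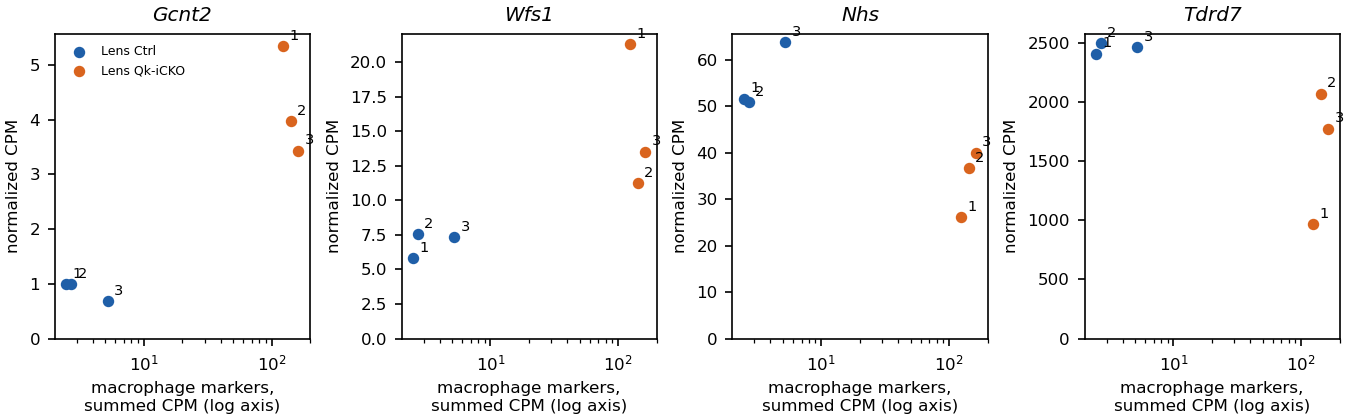
CPM of Gcnt2, Wfs1, Nhs and Tdrd7 in each lens library against the summed CPM of 12 macrophage and leukocyte marker genes (log axis), with the replicate number beside each point. Ctrl libraries lie at 2.49 to 5.22 and Qk-iCKO libraries at 123 to 162 on the marker axis, so that the genotype and the markers separate the libraries in the same way.

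Eya1, the developmental co-activator, was 56.6, 44.3 and 50.6 CPM in WT NLPCs and 93.6, 73.9 and 86.9 CPM in the libraries labelled Qk-/-. All 3 of the latter exceeded all 3 of the former. The log2 fold change was 0.75 (SE 0.13, adjusted p = 0.0094), and the call was lost without WT 2 (adjusted p = 0.061), WT 3 (0.087) or Qk-/- 1 (0.059). In the lens Eya1 was 5.80 to 8.44 CPM in Ctrl and 7.36 to 9.87 CPM in Qk-iCKO (0.21, adjusted p = 0.54).

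Epha2, the ephrin receptor, was 62.4, 66.6 and 69.4 CPM in WT HLE-B3 and 113.8, 118.7 and 126.6 CPM in QKI KO cells. The groups lay far apart beside their spread, with a log2 fold change of 0.86 (SE 0.065, adjusted p = 3.53e-08). The 50 tested genes around it on chromosome 1 had a median of -0.14. In the lens it was 105.7, 87.3 and 84.4 CPM in Ctrl and 58.5, 79.9 and 80.0 CPM in Qk-iCKO. That difference did not pass the test (-0.35, SE 0.18, adjusted p = 0.25). In NLPCs, at 0.497 to 1.31 CPM in WT and 1.42 to 1.71 CPM in the libraries labelled Qk-/-, it did not pass either (0.72, SE 0.48, adjusted p = 0.38).

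Ephrin-A ligands and receptors other than Epha2 counted 1 higher and 0 lower of 5 tested in the lens, 1 and 0 of 9 in NLPCs and 3 and 1 of 8 in HLE-B3. The ligand gene Efna1 was higher in Qk-iCKO lenses (0.80, adjusted p = 0.030) and EFNA1 lower in QKI KO HLE-B3 cells (-0.77, adjusted p = 0.0015). The receptor gene Epha5 was higher in NLPCs (0.46, adjusted p = 0.042) and in HLE-B3 (0.48, adjusted p = 2.08e-05).

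Chmp4b of ESCRT-III did not pass the main edgeR test in any system. In the lens it was 77.98, 74.9 and 77.8 CPM in Ctrl and 57.6, 73.6 and 73.0 CPM in Qk-iCKO. The log2 fold change was -0.18 (95% interval -0.47 to 0.11), and its sign turned with total counts alone (0.078). In NLPCs it was 142.5, 154.7 and 149.4 CPM in WT and 117.5, 103.3 and 127.8 CPM in the libraries labelled Qk-/-. The groups did not overlap, and the log2 fold change of -0.36 (SE 0.099) missed the threshold (adjusted p = 0.058), whereas DESeq2 called it (adjusted p = 0.016). It was also called by edgeR with at least 10 counts required in every library (adjusted p = 0.044) and without Qk-/- 2 (0.028). In HLE-B3 CHMP4B was 52.1 to 61.1 CPM in WT and 48.9 to 52.9 CPM in QKI KO cells (-0.13, adjusted p = 0.19), and it was called with total counts alone (-0.19, adjusted p = 0.044).

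The other ESCRT genes counted 0 higher and 0 lower of 13 in the lens by edgeR (3 at an unadjusted p under 0.05, 0 by DESeq2). In NLPCs 5 of 13 were lower and 0 higher. In HLE-B3 3 of 14 were higher and 4 lower. Chmp1b fell in NLPCs (-0.66, adjusted p = 0.026) and HLE-B3 (-0.38, adjusted p = 0.0011), as did Ist1 (-0.44, adjusted p = 0.027, and -0.17, adjusted p = 0.040). Chmp5 was lower in NLPCs (-0.57, adjusted p = 0.026) and higher in HLE-B3 (0.48, adjusted p = 0.00036).

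**Figure D5:**
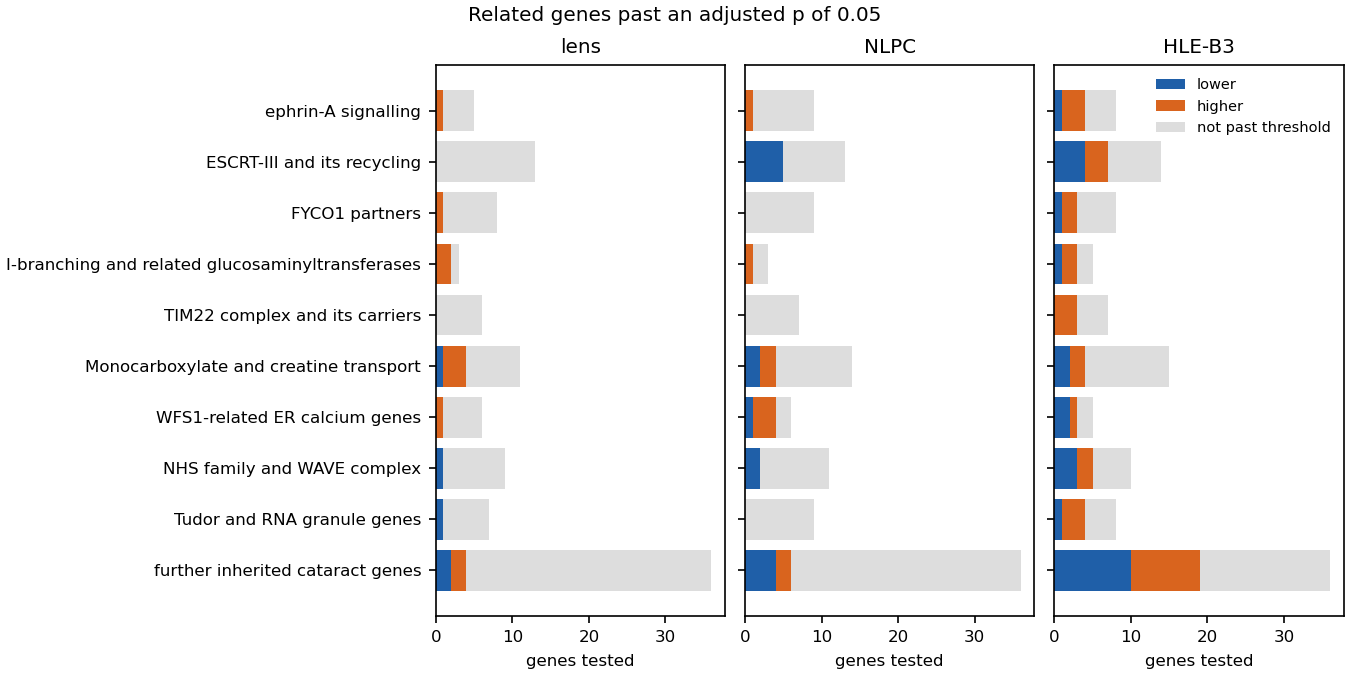
Number of genes tested in each of 10 lists related to the members, in the lens, NLPCs and HLE-B3, split into lower (blue), higher (orange) and not past an adjusted p of 0.05 (grey). In NLPCs 5 of 13 ESCRT genes are lower, and in HLE-B3 19 of 36 further cataract genes are called, 9 higher and 10 lower. Over all genes tested, 5.96% are lower in NLPCs, and 17.0% are higher and 16.3% lower in HLE-B3.

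Fyco1 and Agk passed the test in HLE-B3 and not in the mouse systems, and the difference between systems was not tested against the human cells. FYCO1 was 42.2, 45.2 and 39.9 CPM in WT and 34.7, 34.9 and 38.2 CPM in QKI KO cells (-0.24, SE 0.074, adjusted p = 0.019). The call was lost without WT 1, WT 2, KO 1 or KO 2 (adjusted p = 0.059 to 0.11). AGK was 42.5, 38.1 and 47.1 CPM in WT and 36.2, 34.9 and 37.98 CPM in QKI KO cells (-0.23, SE 0.081, adjusted p = 0.040). The lowest WT value, 38.05, lay just above the highest KO value, and DESeq2 did not call it (adjusted p = 0.057). Leaving out any library but WT 2 took the AGK adjusted p to 0.072 to 0.23. The chemokine receptor gene CXCR6 lies within FYCO1 on the opposite strand.

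In the lens Fyco1 was 12.4 to 16.0 CPM in Ctrl and 10.9 to 25.5 CPM in Qk-iCKO (0.27, adjusted p = 0.62). Its sign rested on Qk-iCKO 1, the library with the highest ciliary body and iris marker sum, without which it was -0.20. Agk was 1.92 to 2.71 CPM in Ctrl and 2.22 to 2.71 CPM in Qk-iCKO lenses (0.13, 95% interval -0.39 to 0.65). In NLPCs Fyco1 (0.35, adjusted p = 0.18) and Agk (-0.25, adjusted p = 0.25) had overlapping groups. Of 9 partners of Fyco1 on late endosomes and microtubules, 1 of 8 tested was higher in the lens, 0 of 9 passed in NLPCs by edgeR (4 at an unadjusted p under 0.05, 2 by DESeq2), and 2 of 8 were higher and 1 lower in HLE-B3. The 2 contact-site genes VAPB (0.49, adjusted p = 8.90e-05) and VAPA (0.31, adjusted p = 0.0019) were those higher. For Agk, which is also a subunit of the TIM22 import complex, 0 of 6 lens genes and 0 of 7 NLPC genes of the complex and its carriers passed by edgeR (2 in each at an unadjusted p under 0.05, and 2 and 1 by DESeq2). In HLE-B3 3 of 7 were higher, including the carrier gene SLC25A4 (0.51, adjusted p = 0.00026) and TIMM10 (0.55, adjusted p = 0.0029).

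Slc16a12, the creatine transporter, was 26.2, 27.2 and 22.5 CPM in Ctrl and 34.4, 44.4 and 22.8 CPM in Qk-iCKO. Qk-iCKO 3 lay among the Ctrl values, and the log2 fold change was 0.42 (SE 0.24, adjusted p = 0.29). In the cultures it was 0 to 0.410 CPM in NLPCs and 0 to 0.356 CPM in HLE-B3, where a difference was not detectable at this depth. Of monocarboxylate transporter and creatine genes, 3 were higher and 1 lower of 11 in the lens, 2 and 2 of 14 in NLPCs and 2 and 2 of 15 in HLE-B3. Gatm, the first enzyme of creatine synthesis, rose in the lens from 0.570 ± 0.361 to 11.1 ± 5.29 CPM (4.22, adjusted p = 0.0031). It passed the filter there only through Qk-iCKO and had to be higher, so that rise is a description. In NLPCs Gatm fell from 37.3 ± 1.11 to 11.5 ± 1.42 CPM (-1.70, adjusted p = 0.00033).

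The deletion effects in the 2 mouse systems were compared in a joint fit with an interaction term, in which 8.53% of 16675 genes differed. For 2 of the 10 members the effect differed. Nhs had an effect 0.97 higher in NLPCs than in the lens on the log2 scale (SE 0.24, adjusted p = 0.025). The Gcnt2 effect was 1.43 lower in NLPCs by the same scale (difference -1.43, SE 0.40, adjusted p = 0.044), which no longer passed under the replicate block (adjusted p = 0.068), nor in 10 of the 12 fits without 1 library. The Nhs difference was lost in 3 of those 12. Epha2 (1.16, adjusted p = 0.078), Eya1 (0.64, adjusted p = 0.12) and Wfs1 (-0.67, adjusted p = 0.22) did not pass. For Tdrd7 the difference was -0.051 (SE 0.33). The human cells were not entered in this fit, so differences from them were not tested.

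As a wider frame, 38 further genes of inherited cataract were counted. Of 36 tested in each system, 2 were higher and 2 lower in the lens, 2 and 4 in NLPCs, and 9 and 10 in HLE-B3. The shares over all genes tested were 8.38% and 3.88%, 4.74% and 5.96%, and 17.0% and 16.3%. Jam3, a junctional adhesion molecule, was lower in all 3 systems, with log2 fold changes of -0.81 in the lens (adjusted p = 0.020), -0.59 in NLPCs (0.037) and -1.15 in HLE-B3 (3.33e-09). The collagen gene Col4a1 was lower in the lens, from 2358 ± 252 to 1216 ± 242 CPM (-0.95, adjusted p = 0.033), and in HLE-B3 (-0.28, adjusted p = 0.00013). P3h2, a collagen prolyl hydroxylase, was higher in the lens (1.82, adjusted p = 0.0090) and lower in HLE-B3 (-1.22, adjusted p = 2.88e-09). Gnpat, an enzyme of ether lipid synthesis, was lower in NLPCs (-0.50, adjusted p = 0.031) and HLE-B3 (-0.31, adjusted p = 0.018). Pxdn, a basement membrane peroxidase, was lower in NLPCs (-0.74, adjusted p = 0.0016) and higher in HLE-B3 (0.16, adjusted p = 0.023).

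Over the 18 libraries, after each system's mean was taken off, the gene most like GCNT2 among 9398 was NFE2L1 (Pearson r = 0.94), followed by MGST1 (0.93). NHS was most like WNK3 (0.97) and ATP11A (0.95). TDRD7 was most like SPPL2A (0.96), CHMP4B like HSBP1 (0.96) and WFS1 like PSAP (0.96), whereas the closest match of SLC16A12 reached 0.75. The libraries of a system share the genotype contrast, and the values are descriptions.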

How the data were processed

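The 18 libraries were stranded TruSeq RNA-seq. The deposited values are raw counts of reads per gene in 3 tables (mouse lens, NLPC, HLE-B3). Per the study's methods, the authors aligned reads to mm10 or hg19 with STAR 2.6.1b and counted them with HTSeq 0.11.0. The submitters' processing notes also name HISAT2 2.0.4 and featureCounts without saying for which table. The annotation release and the strand setting of the counting are not given in the sources used here.

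Counts were filtered with filterByExpr (minimum count 10, total 15), scaled with TMM and tested with edgeR 4.0.16 (R 4.3.3, limma 3.58.1) by quasi-likelihood within each table, with Benjamini-Hochberg adjustment and a threshold of 0.05. The SE is the log2 fold change over the root of the F statistic. The 2 mouse tables were joined by symbol for the interaction. DESeq2 1.42.0, other scalings, filters, a replicate block and single libraries left out were alternatives. A 3 against 3 permutation test cannot go below p = 0.1. The code was tested on simulated data. RPKM used merged exons of GENCODE M21 and v44lift37, the latter newer than the human table.

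Groups came from the labels. Replicate numbers are shared between the groups. Deviations of same-numbered libraries correlated at 0.13 to 0.52 in the lens, 0.12 to 0.32 in NLPCs and -0.049 to 0.061 in HLE-B3. Only lens set 3 and NLPC set 2 correlated best with their own number. The main tests used no pairing in any system, and the replicate block was an alternative. The members and lists were chosen with earlier results of these data known. Text names all 10 members and, from each list, genes called in 2 or more systems, or else the 2 with the smallest adjusted p, with Mip and Y-linked counts given as checks. Likeness names are the 2 genes with the highest r, of which some are printed. One list of related genes is not reported here.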

Additional observations from a re-analysis of the deposited data

Results flagged for a closer look

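The deletion effect of Gcnt2 differed between the 2 mouse systems by the test of the difference itself, at -1.43 (NLPC minus lens, log2; adjusted p = 0.044, edgeR), with log2 fold changes of 2.25 in the lens and 0.73 in NLPCs, both upward. The difference was called in DESeq2 (adjusted p = 0.014) and lost with the replicate block (0.068), with total counts alone (0.069) and with every gene of at least 1 count (0.0997). It was also lost in 10 of the 12 fits that left out 1 library (adjusted p = 0.056 to 0.12), the exceptions being those without Qk-iCKO 3 or Qk-/- 2.

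The deletion effect of Nhs differed by 0.97 (NLPC minus lens, log2; adjusted p = 0.025), with log2 fold changes of -0.70 in the lens and 0.17 in NLPCs, neither of which passed its own test. The difference was kept with the block (adjusted p = 0.016) and in DESeq2 (0.0028) and lost with total counts alone (0.0999) and without Lens Ctrl 3 (0.074), NLPC WT 2 (0.068) or NLPC WT 3 (0.069). Nhs is X-linked and Y-linked counts were high in 2 of the 3 Qk-iCKO lenses. The part of sex was not tested.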

How the results depend on the processing

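With total counts alone, 1 member was called in the lens (Wfs1 not), 7 in place of 5 in HLE-B3 (CHMP4B and TDRD7 added), 0 differed between lens and NLPCs, and 884 lens genes were called in place of 1496. With every gene of at least 1 count, 2521 lens genes were called. With at least 10 counts required in every library, 3 members were called in NLPCs (Chmp4b added) and 4 in HLE-B3 (NHS not kept). DESeq2 called 3736 NLPC genes in place of 2179 and 2290 interaction genes in place of 1423. With the replicate block, 3 members were called in HLE-B3 (FYCO1 and AGK not, adjusted p = 0.054 and 0.061). No HLE-B3 library set correlated best with its own number, and of the mouse sets only lens 3 and NLPC 2 did. The block left 1 member differing between lens and NLPCs and added Nhs in the lens (adjusted p = 0.024); it changed no other member's call.

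Leaving out single libraries gave 1 to 3 members in the lens, 1 to 4 in NLPCs, 3 to 5 in HLE-B3 and 0 to 2 for the difference, and 581 to 1709, 681 to 3797 and 872 to 1597 genes called in the lens, NLPCs and the difference. Total counts alone moved the median of all lens genes by 0.29, and under it the signs of Chmp4b in the lens (0.078) and of the Fyco1 difference (-0.28) turned. The Tdrd7 difference turned with the block (0.0047). Among left-out libraries, signs turned for Fyco1 in the lens (-0.20 to 0.49), Slc16a12 in NLPCs (-1.92 to 0.26, 0.23 without WT 2), SLC16A12 (-1.70 to 0.050) and WFS1 (-0.082 to 0.017) in HLE-B3, and the differences of Fyco1 (-0.084 to 0.65) and Tdrd7 (-0.31 to 0.14). None of these was called. The cause was not tested. With 3 libraries a group, depth limits Slc16a12 in the cultures and NHS and EYA1 in HLE-B3.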
